A study of Mus musculus with 9 samples.

Results

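Semaphorins are a family of secreted and membrane-bound guidance proteins, and 10 semaphorin genes were followed here: Sema3a, Sema3c, Sema3f, Sema4c, Sema4d, Sema5a, Sema5b, Sema6a, Sema6c and Sema6d. They were taken by name from 23201 genes in the deposited tables, and each was represented by the RefSeq transcript with the highest mean level over all libraries. RNA came from the cerebral cortex of mouse embryos at E13.5, when cortical neurons are being born, on a background of C57BL/6, C57BL/6J and CBA. There were 3 libraries of control cortex, 3 of cortex heterozygous for a knockout of Sfpq and 3 of homozygous knockout cortex. Sfpq encodes an RNA- and DNA-binding protein of the nucleus. The labels name neither the Sfpq allele nor a driver of its deletion, and do not say whether each library came from a separate embryo, so p-values measure the spread between libraries.

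The semaphorin domain at the extracellular end of these proteins binds plexins, which are transmembrane receptors that act on small GTPases and through them on actin and microtubules. Secreted class 3 semaphorins bind plexins of the A type mostly through the co-receptors neuropilin 1 and neuropilin 2, whereas the transmembrane classes 4, 5 and 6 bind plexins directly. In the developing cortex these ligands steer growing axons and the leading processes of migrating neurons, and some act on dividing progenitors and on blood vessels.

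Levels are given as RPKM, the read number scaled by transcript length in kilobases and by library size, so they can be compared between genes. Changes are differences of mean log2(RPKM + 0.5) with their standard error (SE), which understate the change of low genes. A gene was called changed at an adjusted p below 0.05 in a limma fit (a moderated linear model) of all 9 libraries, with Benjamini-Hochberg adjustment over the 12159 genes whose mean was at least 0.5 RPKM. The Sfpq transcript was at 201 ± 17.0 RPKM in control, 172 ± 11.5 in heterozygous and 27.4 ± 1.24 in homozygous cortex (SD, n = 3 each). The homozygous libraries lay far below the others (log2 change against control -2.85, limma adjusted p = 1.22e-09), but heterozygous and control libraries overlapped (log2 change -0.22, limma adjusted p = 0.709), so this transcript did not separate the heterozygous label from control. That transcript is a non-coding one, and its place relative to the deletion is not stated in the labels. The steps between low values gave an approximate depth of 168 to 204 M reads (M, 1000000) per library, and the lowest member value corresponded to about 284 reads.

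Markers of cortical progenitors and neurons were present, as the tissue label says: the summed level of 8 radial glia markers was 1780 to 2088 RPKM and that of 8 neuron markers 458 to 606 RPKM over the 9 libraries. These lists held calls in both directions in homozygous against control cortex. Beside the counts of markers called below, 19.9% of all genes tested were called lower and 14.4% higher in this comparison. Of the neuron markers Rbfox3 (log2 change -1.53) and Map2 (-0.30) were lower and Dcx (0.23) was higher. Of the radial glia markers Fabp7 (-0.43) and Slc1a3 (-0.24) were lower and Vim (0.31) was higher. The radial glia sum was 1885 to 2056 RPKM in control and 1780 to 1870 RPKM in homozygous cortex, while the neuron sums overlapped. Fabp7 went from 995 to 736 RPKM and Vim from 565 to 701 RPKM, so these abundant genes weigh most on the radial glia sum. Pax6, Sox2 and Nes stood at 102%, 102% and 99.7% of control and, like Hes1 and Hes5, were not called. Sums of other lists also differed between homozygous and control cortex. The summed level of 5 intermediate progenitor markers ranged over 124 to 159 RPKM in control and over 77.1 to 80.8 RPKM in homozygous cortex. In this list 3 of 5 were lower (Eomes, Neurog2 and Insm1), while Btg2 and Gadd45g were not called. Neurog2 went from 62.4 to 24.5 RPKM and weighs most on the difference of the sums. The 6 markers of deep layer excitatory neurons summed to 126 to 160 and 93.2 to 116 RPKM, with 2 of 6 lower (Fezf2, log2 change -0.60, and Neurod6, -0.62) and 1 higher (Tbr1, 0.31). The 6 Cajal-Retzius markers summed to 31.4 to 35.7 and 41.1 to 49.3 RPKM. Of 5 tested 3 were higher (Lhx5, Ebf2 and Calb2, the last from 14.2 to 24.5 RPKM). Reln (log2 difference -0.16) and Trp73 (-0.05) were not called. The 7 markers of cortical hem and diencephalon summed to 30.0 to 35.6 and 41.6 to 44.9 RPKM. Of 6 tested 4 were higher (Rspo3, Tcf7l2, Lhx9 and Otx2), while Wnt3a (-0.20) and Lmx1a (-0.24) were not called. The 7 microglia markers summed to 11.8 to 13.0 and 15.2 to 21.2 RPKM, with 4 of 7 higher. None of the 8 endothelial markers was called, and the summed levels of the 4 choroid plexus markers (372 to 596 RPKM) and of the 8 of ganglionic eminence and GABAergic neurons (6.31 to 15.7 RPKM) overlapped between genotypes. Of the latter 1 of 5 tested was higher: Gad1, the enzyme that makes GABA, came to 297% of control (log2 change 1.15, limma adjusted p = 6.68e-04). The others tested in that list were not called: Gad2 (log2 difference 0.12), Dlx1 (-0.05), Gsx2 (-0.25) and Lhx6 (-0.57). The part of these shifts in the semaphorin changes was not tested, and in bulk tissue fewer cells of a type cannot be told apart from less RNA per cell.

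Semaphorin expression in homozygous Sfpq cortex was changed in both directions. Sema5a and Sema5b fell to 16.7% and 14.0% of their control levels, Sema3a, Sema3c and Sema6d fell to between 58.8% and 67.2%, and Sema6a rose to 185%. Sema3f, Sema4c and Sema6c were not called, and Sema4d, with a mean of 0.455 RPKM over the 9 libraries, lay below the filter on low values. The members were chosen with earlier results of these data known, so counts over them are a description. Of the 9 members tested 6 were called, 5 lower and 1 higher. Of all genes tested 34.3% were called in the same comparison, 19.9% lower and 14.4% higher. That split of all genes depended on the scaling: 2423 were lower and 1747 higher here, 2167 lower and 2568 higher with quantile normalization, and 1947 lower and 2953 higher with equal medians, while the 6 member calls kept their direction under both and Sema3f was also called higher. Homozygous and control libraries did not overlap in 7 of the 9 members tested, the 6 called and Sema3f, beside 46.2% of all genes tested. Heterozygous cortex had no member called, beside 0.0% of all genes.

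**Figure D1:**
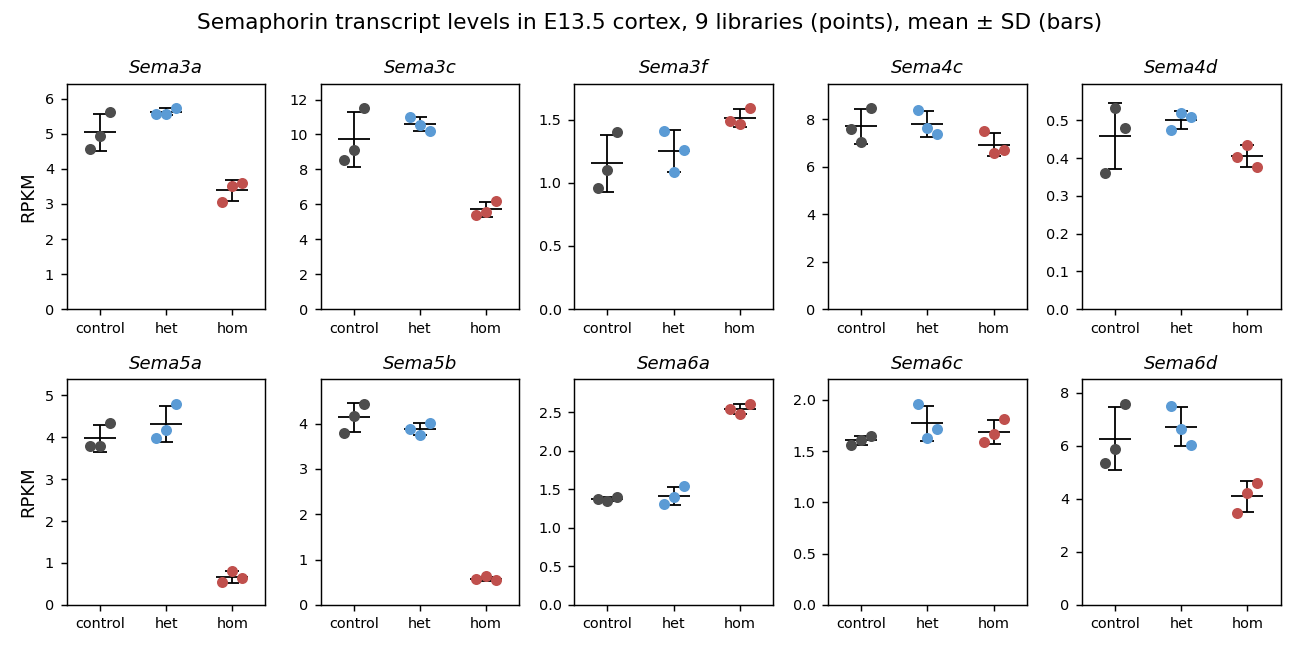
RPKM (y axes, from 0) of the 10 semaphorin genes in 3 control, 3 heterozygous (het) and 3 homozygous (hom) libraries; points are libraries and bars the mean ± SD. The homozygous points of Sema5a and Sema5b lie between 0.540 and 0.812 RPKM, far below the other genotypes, and those of Sema6a lie above them.

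The secreted members were led by Sema3c, the most abundant of the 10 genes in control and heterozygous cortex, which acts on migrating neurons and on callosal axons. Control libraries 1 to 3 held 8.55, 9.10 and 11.5 RPKM of Sema3c, heterozygous libraries 11.0, 10.5 and 10.2 RPKM, and homozygous libraries 5.41, 5.54 and 6.20 RPKM. Every homozygous library was below every other one. The log2 change from control to homozygous cortex was -0.71 (SE 0.099, limma adjusted p = 2.42e-04), and that from heterozygous to homozygous cortex was -0.84 (SE 0.099, limma adjusted p = 7.75e-05).

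Sema3a, a repellent of cortical axons that also attracts apical dendrites towards the pial surface, had 4.56, 4.94 and 5.62 RPKM in control, 5.58, 5.58 and 5.75 in heterozygous and 3.04, 3.51 and 3.60 in homozygous cortex. Again the homozygous libraries were the lowest, with no overlap. Its log2 change was -0.51 against control (SE 0.086, limma adjusted p = 9.07e-04) and -0.66 against heterozygous cortex (SE 0.086, limma adjusted p = 1.59e-04). The 3 Sema3a transcripts in the files, which share most of their exons and therefore reads, fell to 67.2% of control each.

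Sema3f, which repels axons mainly through neuropilin 2, was the weakest secreted member. It was measured at 0.963, 1.10 and 1.40 RPKM in control, 1.41, 1.08 and 1.26 in heterozygous and 1.49, 1.46 and 1.59 in homozygous cortex. The homozygous libraries were the highest in each case, by a narrow gap to control library 3 and heterozygous library 1. The log2 difference from control was 0.29 (95% confidence interval 0.06 to 0.53, limma adjusted p = 0.0541). It passed the threshold under 5 of the 19 alternative settings available for it, among them without control replicate 3 (log2 change 0.40, limma adjusted p = 0.0121), and the adjusted p ranged from 0.00783 to 0.180 over them.

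Both class 5 members, Sema5a and Sema5b, are transmembrane proteins with thrombospondin repeats beside the semaphorin domain, and are known as repellents of growing axons and dendrites. Sema5a was present at 3.78, 3.79 and 4.34 RPKM in control, at 3.98, 4.17 and 4.80 in heterozygous and at 0.540, 0.812 and 0.635 in homozygous cortex. Sema5b was present at 3.79, 4.18 and 4.44 RPKM in control, at 3.87, 3.75 and 4.02 in heterozygous and at 0.565, 0.630 and 0.548 in homozygous cortex. In both genes the control and heterozygous libraries overlapped each other, and the homozygous libraries stood apart below them. The log2 change against control was -1.95 for Sema5a (SE 0.104, limma adjusted p = 1.78e-07) and -2.10 for Sema5b (SE 0.078, limma adjusted p = 2.30e-08). Against heterozygous cortex the changes were -2.05 and -2.02. A call with a log2 change of -1.9 or lower was made for 37 genes, 0.304% of those tested, these 2 among them.

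Within each library the log2 ratio of Sema5b to Sema5a averaged 0.06 ± 0.071 in control, -0.15 ± 0.109 in heterozygous and -0.17 ± 0.219 in homozygous cortex (SD, n = 3 each). The difference between homozygous and control cortex was -0.23 with p = 0.3 in a two-sided exact permutation test, whose smallest p for 3 against 3 libraries is 0.1. That p does not show that the pair fell equally.

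The start of Sema5a faces another gene. Snhg18, a long non-coding RNA gene of 4.10 kb, lies on the opposite strand with 147 bases between the annotated ends on chromosome 15. This neighbour was singled out after its values were seen. Snhg18 had 5.75, 6.33 and 6.88 RPKM in control, 5.67, 5.77 and 5.37 in heterozygous and 3.78, 4.38 and 3.60 in homozygous cortex. It fell to 62.0% of control where Sema5a fell to 16.7%, with a log2 change of -0.63 (SE 0.086, limma adjusted p = 2.15e-04). The libraries of Snhg18 did not overlap between homozygous and control cortex, and against heterozygous cortex its change came to -0.47 (limma adjusted p = 0.00165).

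The promoter windows were searched on both strands for the GC box GGGCGG, which binds factors of the Sp family, because members with and without a change can be set side by side in this way. RefSeq promoters on GRCm38.p6 were searched for 8 of the 10 members, with 13 start sites in all, each with 250 bases before the start. Windows of Sema3f and Sema6a were not among them, so the only member called higher could not be set beside the others. Stretches without annotated exons are printed for Sema5a, which fell steeply (chr15:32244663-32244809, plus strand), the start of 1 of the 3 transcripts of Sema3a, which fell moderately (chr5:13396534-13396783, plus strand), and the outer of 2 starts of Sema6c, which was not called (chr3:95160170-95160419, plus strand). Capitals mark the GC box in either orientation, GGGCGG or CCGCCC.
Sema5a: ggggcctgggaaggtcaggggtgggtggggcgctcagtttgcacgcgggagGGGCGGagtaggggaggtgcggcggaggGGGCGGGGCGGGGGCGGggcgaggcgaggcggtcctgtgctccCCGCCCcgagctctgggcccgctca
Sema3a: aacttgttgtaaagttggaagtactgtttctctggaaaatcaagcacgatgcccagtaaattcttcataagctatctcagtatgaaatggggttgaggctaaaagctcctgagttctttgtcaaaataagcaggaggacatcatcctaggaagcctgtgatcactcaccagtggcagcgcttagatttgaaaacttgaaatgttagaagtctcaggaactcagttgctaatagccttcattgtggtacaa
Sema6c: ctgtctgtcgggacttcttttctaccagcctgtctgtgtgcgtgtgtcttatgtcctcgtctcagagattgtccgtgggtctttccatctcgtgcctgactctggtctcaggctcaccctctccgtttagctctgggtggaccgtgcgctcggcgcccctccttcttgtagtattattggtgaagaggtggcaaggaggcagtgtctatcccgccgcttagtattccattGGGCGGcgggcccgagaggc
The Sema5a stretch is the one between Snhg18 and Sema5a, is 78.9% G and C and holds 5 GC boxes, of which 2 share a base. Sema3a has none in 250 bases that are 40.8% G and C, and Sema6c has 1. Of 32851 RefSeq promoter windows of 250 bases, 32.74% hold a GC box, and their median G and C content is 52.4%. Sema3c has 3 GC boxes, Sema4c has 2 at each of its 2 starts, and Sema5b has 0. Sema6d has 1 at its outer and 0 at its inner start, Sema4d has 1 at 1 of its 3 starts and 0 at the others, and the inner start of Sema6c has 0. The longest stretch without annotated exons is 33 bases in the Sema5b window and 0 in those of Sema3c and of the outer Sema4c start. These counts therefore come largely or wholly from windows that annotated exons overlap, unlike the Sema5a stretch. The 2 class 5 genes, which both fell, stand at opposite ends of this count, but their windows are unlike in this respect. A match of letters is a description rather than a site. None of the 13 member windows searched holds the TATA box TATAAA, found in 12.37% of all windows.

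The class 6 members, transmembrane ligands that signal through plexins of the A type and can also act as receptors, gave 1 rise, 1 fall and 1 gene not called. Sema6a, which is known to restrain growing axons and migrating neurons, had 1.37, 1.34 and 1.40 RPKM in control, 1.31, 1.39 and 1.54 in heterozygous and 2.54, 2.47 and 2.61 in homozygous cortex. All homozygous libraries were above all others. Its log2 change of 0.70 against control (SE 0.074, limma adjusted p = 3.11e-05) was the only rise called among the members, and against heterozygous cortex it was 0.67 (limma adjusted p = 4.61e-05).

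Sema6d, which guides axons and heart precursors through plexin A1, went the other way. It had 5.34, 5.90 and 7.60 RPKM in control, 7.50, 6.64 and 6.03 in heterozygous and 3.47, 4.22 and 4.59 in homozygous cortex. The control libraries spread widely, yet the highest homozygous library stayed under the lowest control library. The log2 change was -0.56 against control (SE 0.131, limma adjusted p = 0.00689) and -0.66 against heterozygous cortex (limma adjusted p = 0.00279). All 5 Sema6d transcripts in the files were called lower, at 65.2% to 65.7% of control, and they too share reads. These transcripts span 55.7 to 57.5 kb of a gene whose annotated span is 578 kb.

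Sema6c, the remaining class 6 ligand, was at 1.56, 1.61 and 1.65 RPKM in control, 1.96, 1.63 and 1.72 in heterozygous and 1.58, 1.66 and 1.81 in homozygous cortex. The 3 genotypes overlapped. The log2 difference between homozygous and control cortex was 0.05, with a 95% confidence interval from -0.12 to 0.23, and none of its 5 transcripts was called. Over all members 12 of 19 tested transcripts were called, beside 35.0% of all transcripts. These 12 belong to the 6 genes called, with 5 from Sema6d and 3 from Sema3a that share reads, so they are not separate results.

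The class 4 members are transmembrane ligands of plexins of the B type. Sema4c, which is expressed by cortical progenitors and neurons and binds plexin B2, had 7.60, 7.03 and 8.49 RPKM in control, 8.42, 7.64 and 7.38 in heterozygous and 7.50, 6.60 and 6.70 in homozygous cortex. The groups overlapped, and the log2 difference between homozygous and control cortex was -0.14 (95% confidence interval -0.32 to 0.04, limma adjusted p = 0.222). Sema4d, a ligand of plexin B1, was the weakest member, at 0.361, 0.533 and 0.480 RPKM in control, 0.474, 0.521 and 0.509 in heterozygous and 0.404, 0.435 and 0.376 in homozygous cortex. With no filter on low values its log2 difference from control was -0.08 (limma adjusted p = 0.473). The homozygous libraries of Sema4d overlapped with control but not with heterozygous cortex.

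**Figure D2:**
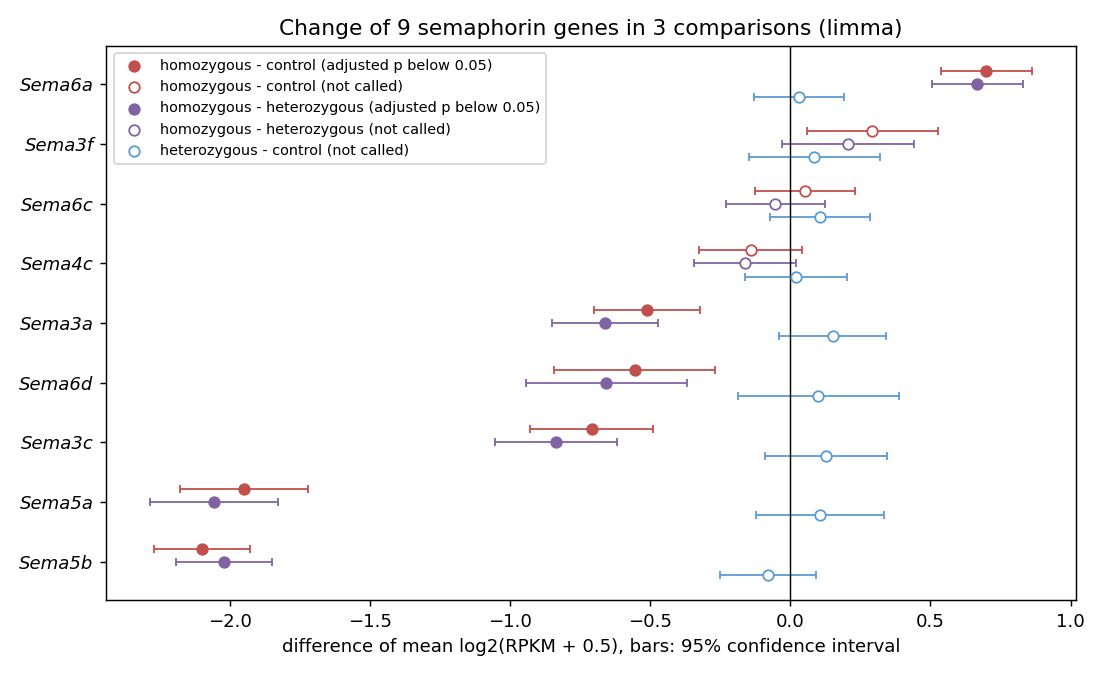
Difference of mean log2(RPKM + 0.5) (x axis) with its 95% confidence interval for the 9 semaphorin genes tested, in 3 comparisons; filled points have a limma adjusted p below 0.05. Sema5b and Sema5a lie near -2.10 and -1.95 in homozygous against control cortex, Sema6a at 0.70, and all heterozygous points are open.

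In heterozygous cortex none of the 9 members tested was called against control. No member passed an unadjusted p of 0.05 in limma, where 699 of 12159 genes (5.75%) did, and no member was without overlap, beside 11.1% of all genes. The differences ran from -0.08 in Sema5b to 0.15 in Sema3a, positive in 8 of the 9 members tested, with limma adjusted p-values from 0.927 to 0.997. The widest 95% confidence interval, that of Sema6d, ran from -0.19 to 0.39, and that of Sema5b from -0.25 to 0.09. Homozygous against heterozygous cortex gave the calls named for each member, 6 of 9 (5 lower, 1 higher), beside 32.8% of all genes, and 7 of 9 had no overlap, beside 46.7%. The comparisons share libraries pairwise, so their values are set side by side and are not independent.

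The order of the levels changed with these shifts. In control cortex Sema3c was highest, at 9.72 ± 1.59 RPKM (SD, n = 3), and did not overlap with Sema4c at 7.71 ± 0.736. Sema4c and Sema6d (6.28 ± 1.18) overlapped, as did Sema6d and Sema3a (5.04 ± 0.539), and Sema5b (4.14 ± 0.328) and Sema5a (3.97 ± 0.319). Below them followed Sema6c (1.60 ± 0.046), then Sema6a (1.37 ± 0.027) and Sema3f (1.15 ± 0.224), which overlapped, and Sema4d (0.458 ± 0.088). In homozygous cortex Sema4c came first, at 6.94 ± 0.493 RPKM, and Sema3c second, at 5.72 ± 0.424, without overlap. Sema5a (0.662 ± 0.138) and Sema5b (0.581 ± 0.043) dropped below Sema6a, Sema6c and Sema3f to the places just above Sema4d.

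Summed over the 10 genes, the level was 41.5 ± 4.84 RPKM in control, 43.9 ± 1.40 in heterozygous and 27.5 ± 1.07 in homozygous cortex (SD, n = 3 each). The sum was 26.5 to 28.7 RPKM in the homozygous libraries and 37.9 to 47.0 in control, without overlap. Class 5 made up 19.6% ± 0.796 of the sum in control and 4.52% ± 0.651 in homozygous cortex. The share of class 4 went from 19.8% ± 1.10 to 26.7% ± 2.69 and that of class 6 from 22.3% ± 0.425 to 30.2% ± 1.45. Class 3 held 38.3% ± 1.18 and 38.6% ± 1.15. Control library 3 was the highest control library in 9 of the 10 members. It was also highest in the summed markers of radial glia, neurons, intermediate progenitors and endothelium. But it was the lowest for ganglionic eminence and GABAergic neurons, at 15.7, 8.86 and 6.90 RPKM in control libraries 1 to 3. The summed Cajal-Retzius and erythroid markers were highest in control library 2. Without control library 3, no member called in the full set was lost.

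**Figure D3:**
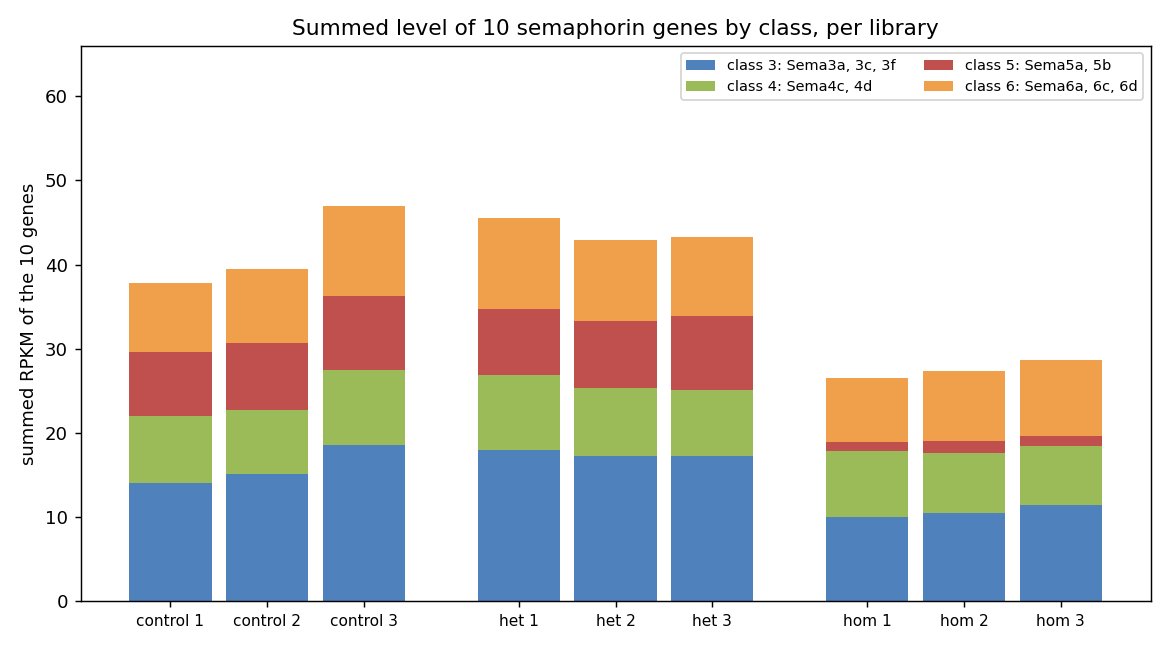
Summed RPKM (y axis, from 0) of the 10 semaphorin genes in each of the 9 libraries, stacked by class (het, heterozygous; hom, homozygous). The class 5 band shrinks from 7.57 to 8.78 RPKM in control to 1.10 to 1.44 RPKM in the homozygous libraries.

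The title of the series names long genes, so the genomic span of the members (from GENCODE M21 on GRCm38) was set beside their changes. Of the 6 members tested that span at least 100 kb, 5 fell (Sema3a, Sema3c, Sema5a, Sema5b and Sema6d) and Sema6a rose; of the 3 shorter ones (Sema3f, Sema4c and Sema6c) none was called. Among all genes of at least 100 kb, 41.8% were lower and 10.7% higher, and among shorter genes 15.7% were lower and 15.1% higher. All 3 members of at least 400 kb fell, beside 71.2% lower and 4.29% higher among all such genes. The size of the change did not follow the span among the long members. Sema6d (578 kb), Sema3a (477 kb) and Sema5a (452 kb) had log2 changes of -0.56, -0.51 and -1.95, while Sema3c (156 kb) and Sema5b (124 kb) had -0.71 and -2.10. By the span of the transcript kept rather than of the gene, Sema3a would count with 203 kb and Sema6d, with 57.5 kb, among the shorter members.

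Sema6a (133 kb, chromosome 18) and Sema5b (124 kb, chromosome 16) have nearly the same span and opposite changes. The log2 ratio of Sema5b to Sema6a came to 1.47, 1.64 and 1.67 in control, 1.57, 1.43 and 1.38 in heterozygous and -2.17, -1.97 and -2.25 in homozygous cortex. The sign of the ratio was inverted in every homozygous library, a difference of -3.72 against control. Among genes of 100 to 200 kb, 31.5% were lower and 12.8% higher. Sema5a and Sema3a, with spans of 452 and 477 kb, also parted: their log2 ratio averaged -0.34 ± 0.063 (SD, n = 3) in control and -2.37 ± 0.223 (n = 3) in homozygous libraries. These pairs were chosen after their changes were seen.

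**Figure D4:**
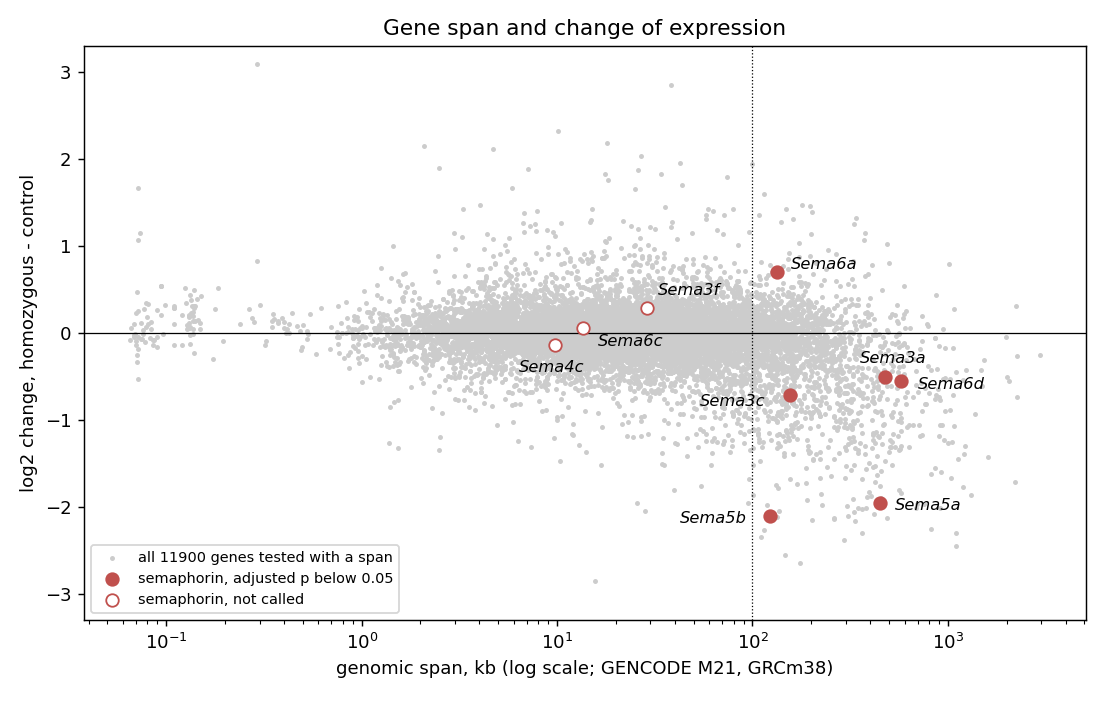
Log2 change of homozygous against control cortex (y axis, log2(RPKM + 0.5)) against genomic span in kb (x axis, log scale) for all genes tested with a span (grey) and the 9 semaphorin genes (red; filled, adjusted p below 0.05). The dotted line marks 100 kb, and the long semaphorin genes lie from -2.10 to 0.70 without an order by span.

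Genes with the profile most like 2 of the members were found by Pearson correlation of log2(RPKM + 0.5) over the 9 libraries, a measure that mostly reads the gap between homozygous and other libraries. For Sema5b, which had the smallest p of those that fell, the closest 5 of all genes tested were Npas3 (r = 0.999), Msi2 (0.999), Sfpq (0.998), Samd4 (0.998) and Fto (0.998). Npas3, a transcription factor gene, went from 3.63 to 0.366 RPKM, and Msi2, the gene of an RNA-binding protein of progenitors, from 43.4 to 10.4 RPKM. For Sema6a they were Nr2c1 (0.996), Ripk4 (0.995), Nme3 (0.995), Cops6 (0.994) and Fzd10os (0.993).

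The other 10 semaphorin genes were mostly weak in this tissue, and 5 passed the filter. Sema4b rose from 2.56 ± 0.247 to 3.34 ± 0.061 RPKM (SD, n = 3 each; log2 change 0.33, limma adjusted p = 0.0138), and Sema7a, the membrane-anchored member that acts through integrins and plexin C1, fell from 2.39 ± 0.223 to 1.81 ± 0.278 RPKM (log2 change -0.33, limma adjusted p = 0.0253). Sema4b was not called without control replicate 1 (adjusted p = 0.0521), and Sema7a was not called in 5 of 20 alternatives, among them without each of control replicates 2 and 3 and homozygous replicates 1 and 2 (highest adjusted p = 0.0881). The median log2 difference of the 5 other semaphorins tested was 0.02, beside -0.51 for the 9 members and -0.01 for all genes. Members and lists were chosen with earlier results of these data known, so the gap between these medians is no test. Sema3e, a ligand of plexin D1 with a span of 231 kb, lay below the filter and was picked out after its values were seen: it had 0.541, 0.577 and 0.696 RPKM in control, 0.624, 0.426 and 0.548 in heterozygous and 0.263, 0.229 and 0.278 in homozygous cortex. With no filter its log2 change was -0.54 (limma adjusted p = 0.00197).

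The receptors showed no common direction: of 10 tested plexins and neuropilins 2 rose and 2 fell, beside 14.4% and 19.9% of all genes tested. Their median of -0.03 turned to 0.03 with quantile normalization and 0.04 with equal medians. Plxna4, the receptor through which Sema3a and the class 6 ligands act on many axons, fell from 3.63 ± 0.787 to 1.29 ± 0.216 RPKM (SD, n = 3 each; log2 change -1.20, SE 0.138, limma adjusted p = 5.90e-05). Plxna2, a receptor of Sema6a and Sema5a, fell from 10.2 to 14.2 RPKM over the control libraries to 7.80 to 9.91 RPKM over the homozygous libraries (log2 change -0.43, limma adjusted p = 0.0119; 0.0507 without homozygous replicate 1). Plxnc1, the receptor of Sema7a, rose from 4.63 ± 0.110 to 6.42 ± 0.821 RPKM (log2 change 0.43, limma adjusted p = 0.00616). Plxna1, named because it is the remaining call, rose by 0.32 (limma adjusted p = 0.0400, lost in 6 of 20 alternatives). Nrp1 and Nrp2 are given as the co-receptors of the class 3 members. Nrp1, the co-receptor of Sema3a and Sema3c, was at 12.2 ± 1.83 RPKM in control and 12.7 ± 1.71 in homozygous cortex, and Nrp2 at 9.46 ± 0.756 and 7.70 ± 1.04; neither was called (limma adjusted p = 0.772 and 0.0972).

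Of 12 tested co-receptors and cofactors, 3 fell and 1 rose, beside 19.9% and 14.4% of all genes tested, with a median of -0.13. Alcam, an adhesion protein of growing axons, fell from 19.1 ± 2.73 to 6.60 ± 0.619 RPKM (SD, n = 3 each; log2 change -1.46, limma adjusted p = 1.07e-06). Nrcam, the partner of neuropilin 2, fell by 0.51 and Ptk7, a co-receptor of plexin A1, fell by 0.41 on the log2 scale. L1cam, the one that rose (0.34, limma adjusted p = 0.0354), lost its call in 7 of 20 alternatives. Of 34 tested genes of signal transduction 9 fell and 5 rose, beside the same shares of all genes. Their median of -0.04 turned to 0.03 with equal medians. Rnd1, a small GTPase that binds plexins, fell from 3.56 ± 0.435 to 1.08 ± 0.096 RPKM, Fyn, a kinase downstream of Sema3a, from 31.9 ± 3.86 to 16.6 ± 0.949 RPKM, and Mical3, of the family of actin-oxidizing enzymes, rose from 1.64 ± 0.031 to 4.27 ± 0.703 RPKM (limma adjusted p = 3.38e-06, 1.04e-05 and 1.23e-05).

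**Figure D5:**
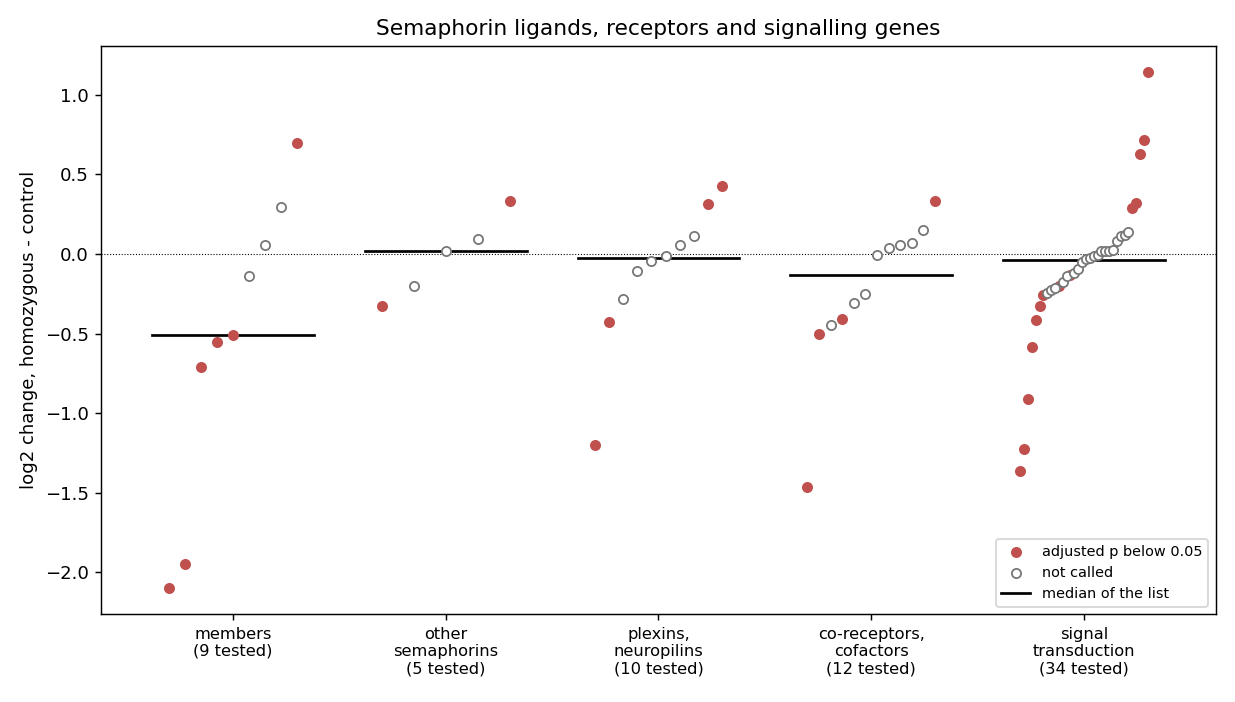
Log2 change of homozygous against control cortex (y axis) for each tested gene of 5 lists, sorted within a list; red points have a limma adjusted p below 0.05 and the bar is the list's median. The members' median lies at -0.51 and those of the other lists between -0.13 and 0.02. The lists were chosen with earlier results of these data known, so this gap is no test.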

How the data were processed

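The authors deposited 1 RPKM table of 30978 RefSeq transcripts per library, per the file headers. CASAVA 1.8.2, TopHat 1.4.1 and the build mm9 are listed in the submitters' processing notes. The program behind RPKM, its annotation, strand setting and rule for shared reads were not given in the sources used here. RNA was depleted of ribosomal RNA, per the labels' protocols.

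Transcripts were named with RefSeq (30503) and GENCODE (182) tables, and 293 stayed unnamed. Per gene the transcript with the highest mean RPKM was kept. Genes whose mean reached 0.5 RPKM were fitted with limma 3.58.1 (R 4.3.3) on log2(RPKM + 0.5), by genotype with a mean-variance trend. Exact permutation tests used SciPy 1.17.1. Simulated data had the control means and the spread within genotypes of 12159 genes, of which 200 were changed, equally often up and down. There the fit found 76.2% of log2 changes of 0.5 and 98.8% of changes of 1, and 4.15% of its calls were false. In the real homozygous against control comparison 34.3% of genes were called, so these rates hold for the simulated setting only.

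Depth was estimated from low values: 66.5% to 71.0% of those under 5 reads were whole to within 0.1 read, too few for a count test. The members and gene lists were chosen with earlier results of these data known. Named genes are the members, Sfpq, other semaphorins that were called, the 3 genes of each pathway list with the smallest p, and the 5 genes most like the leading riser and faller. Sema3e, Snhg18, Plxna1, L1cam, Nrp1, Nrp2 and all marker genes named by symbol fall outside that rule and were named after their values were seen. The alternatives were other pseudocounts, filters, scalings, transcripts and fits, a replicate block and leaving out each library.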

Additional observations from a re-analysis of the deposited data

How the results depend on the processing

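The 6 member calls in homozygous against control cortex, and the 6 against heterozygous cortex, kept their direction and side of the threshold in every alternative that tested the gene. A filter at a mean of 2 RPKM left 6 members tested, without Sema3f, Sema6a and Sema6c, and called 5. Sema3f against control passed the threshold with quantile normalization (log2 change 0.33, limma adjusted p = 0.0140), equal medians (0.36, 0.00783), a replicate block (0.29, 0.0464), no mean-variance trend (0.29, 0.0466) and without control replicate 3 (0.40, 0.0121), and against heterozygous cortex with equal medians (0.27, 0.0338). Signs turned only in differences that were not called. In heterozygous against control cortex the log2 difference of Sema4c ranged from -0.039 (without control replicate 2) to 0.088 and that of Sema6a from -0.016 (without heterozygous replicate 3) to 0.072 when a library was left out. In homozygous against heterozygous cortex that of Sema6c ranged from -0.098 to 0.0076 (without heterozygous replicate 1) and was 0.0073 with equal medians. Heterozygous against control cortex had 0 genes called, 1 in a fit of only the 2 groups, and 0 to 1 when a library was left out.

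Scaling moved the split of all genes called in homozygous against control cortex from 1747 higher and 2423 lower to 2568 and 2167 with quantile normalization and to 2953 and 1947 with equal medians, and against heterozygous cortex from 1771 and 2221 to 2429 and 2099 and to 2957 and 1814. The cause was not tested. Libraries with the same number did not all deviate together (r of -0.04 to 0.40 between genotypes). Between control and homozygous cortex r was 0.40, 0.07 and 0.32 for numbers 1 to 3, and -0.44 to 0.10 for unlike numbers. Whether the number marks shared handling was not tested. With the number as a replicate block 4429, 4267 and 0 genes were called in homozygous against control, homozygous against heterozygous and heterozygous against control cortex. The block gave 7, 6 and 0 members called. At the estimated depth, Sema4d was the member read most thinly.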
